A study of Brassica napus with 2 samples.

Results

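The seed globulins of *Brassica napus* were followed by RNA-seq in whole seeds of a yellow-seeded and a brown-seeded line, 26 days after flowering. Unigenes, which are the transcripts assembled from the reads, were taken as globulins where the table gave an assigned *B. napus* gene and a Swiss-Prot description containing cruciferin, 12S seed storage, legumin, glycinin, convicilin or vicilin. This rule found 11 of the 50366 unigenes, assigned to 8 genes. Yellow seeds came from the pure line Cy2Y, which carries the dominant *Ecy1* allele in both copies (genotype *YY*), and brown seeds from its near-isogenic line Cy2B (genotype *yy*). Both lines go back to a single heterozygous plant, the yellow mutation arose in the field without induced mutagenesis, and the seeds sequenced were from field-grown plants. Each line gave 1 library, so line and library cannot be told apart and the spread between plants of a line is not known. Reads counted over the unigenes came to 23236592 in the yellow library and 23575447 in the brown library. These sums are the library totals used here, and they are smaller than the clean read pairs that the study reports.

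Globulins are storage proteins that the embryo builds up while the seed fills and breaks down at germination. They belong to the cupins and fall in the 11S family, named legumins in legumes and cruciferins in crucifers, and the 7S family, named vicilins. An 11S precursor is made in the endoplasmic reticulum, carried to the protein storage vacuole by sorting receptors and cut there into an alpha and a beta chain by vacuolar-processing enzymes. Cruciferins and the small 2S napins make up most of the protein of a ripe rapeseed. Whole seeds hold embryo, endosperm and seed coat, so fewer embryo cells and less RNA per embryo cell cannot be told apart here.

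All 11 unigenes had a Pfam cupin domain and the term nutrient reservoir activity, neither of which the rule used. Pfam domains and Swiss-Prot names both rest on sequence comparison, so the domain is not an independent check of the names. By description, 8 unigenes of 5 genes were of the 11S family and 3 unigenes of 3 genes of the 7S family. Cruciferin was the description of 6 unigenes and 12S seed storage of 2, whereas legumin and glycinin described none. The assigned genes were divided evenly, with 4 on A chromosomes and 4 on C chromosomes. The names differed in how closely they fit. The cruciferins had Swiss-Prot alignment scores between 373 and 2008, but convicilin (score 150), the vicilin-like unigenes (256 and 159) and the 12S globulin 2 (149) were named after distant proteins of pea, macadamia and oat, so that these names stand for the protein family rather than for a known rapeseed protein. RPKM, the reads of a unigene scaled to its length and to the library total, is the level per length used throughout.

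Most globulins were more abundant in yellow than in brown seeds. A unigene was called where its reads differed more than 2-fold after scaling to the library totals and Fisher's exact test gave an adjusted p under 0.05. Of the 11 globulins, 8 unigenes of 6 genes were called higher in yellow seeds (72.7%), 1 lower (9.09%) and 2 did not pass. Of all unigenes, 3.28% were called higher and 1.47% lower. The test compares the reads of the 2 libraries and has no replicate check. Over the 10 globulin unigenes with at least 20 reads the median log2 ratio was 2.18, with 1 read added to each library, whereas it was -0.00 over the 29239 unigenes with that many reads. Of those 10, 8 were called higher and none lower, beside 3.02% and 1.32% of all unigenes with that many reads. CRU1, 1 gene, gave 3 of the 10 and so weighs more than once in the median. Summed by gene, the log2 ratio was 3.99 for CRU4, 2.97 for CRU1, 2.80 and 1.63 for the vicilin-like genes and 1.36 for convicilin. It was 1.15 for CRU2, -0.48 for the 12S globulin 2 and -1.68 for BnC2. The calls were then repeated with edgeR's exact test, in which a spread beyond counting was assumed. With a biological coefficient of variation of 0.1 the same calls were made, beside 1.64% of all unigenes higher and 0.735% lower. With 0.2 the calls of convicilin, CRU2 and the BnC2 fragment were lost and 6 globulins were called higher, beside 0.691% of all unigenes higher and 0.195% lower. With 0.4 only CRU4 was called higher, beside 0.175% of all unigenes higher and 0.0357% lower.

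**Figure D1:**
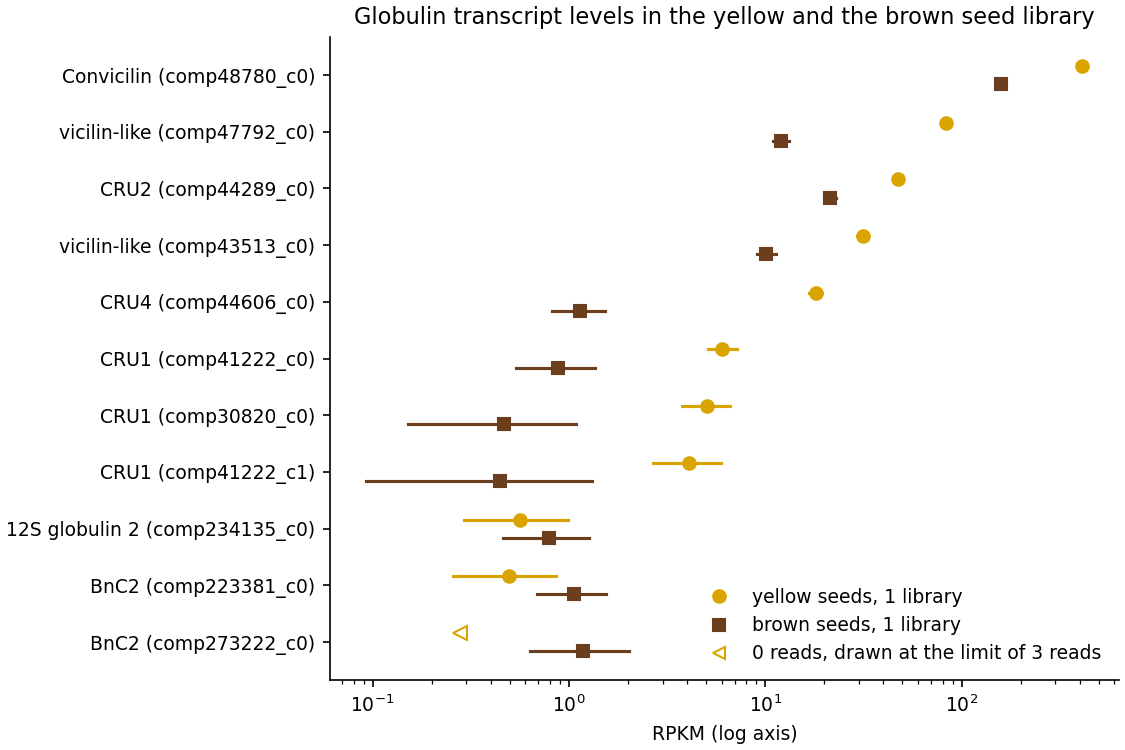
RPKM of the 11 globulin unigenes (log axis), ordered by their level in yellow seeds; circles are the yellow library, squares the brown library, lines are exact 95% Poisson intervals that cover counting error only, and the open triangle stands at the limit of 3 reads for a unigene with 0 reads. In yellow seeds 8 unigenes lie at 4.09 RPKM or above and 3 at 0.565 or below, and only those 3 lie lower in yellow than in brown seeds.

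The levels covered a wide range in both libraries. In yellow seeds convicilin stood first at 409 RPKM, followed by the vicilin-like unigene on C04, CRU2, the vicilin-like unigene on A06 and CRU4, and each of these differed from the next by more than the counting error of 95% Poisson intervals. The 3 CRU1 unigenes came next, between 4.09 and 6.06 RPKM, and neighbours among them overlapped. The 12S globulin 2 and BnC2 were last, with overlapping intervals at and below 0.565 RPKM. In brown seeds convicilin was again first and CRU2 second, while the vicilin-like unigenes on C04 and A06 had overlapping intervals at 12.01 and 10.1 RPKM. The other 7 unigenes lay between 0.448 and 1.19 RPKM in brown seeds, and each overlapped its neighbour in the order. CRU4, the CRU1 unigenes, BnC2 and the 12S globulin 2 thus lay close together in brown seeds and apart in yellow seeds.

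CRU4 had the highest ratio of the family. This unigene (comp44606_c0, 1600 bp) encodes the cruciferin subunit CRU4 of *B. napus* and was assigned to GSBRNA2T00002721001 on C05, plus strand, from 1035287 to 1037617 in the genome of cv. Darmor-bzh. It had 672 reads in yellow seeds, against 43 in brown seeds. Its level was 18.1 RPKM in yellow and 1.14 RPKM in brown seeds, a ratio of 15.9 with an exact binomial 95% interval of 11.6 to 22.1 (adjusted p = 9.42e-146 by Fisher's exact test). By RPKM it ranked 7571 among all unigenes in yellow seeds and 27657 in brown seeds.

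CRU1, another cruciferin subunit, was represented by 3 unigenes that were all assigned to GSBRNA2T00058099001 on A01, minus strand, from 4009040 to 4011029, and that may be parts of 1 transcript. The longest, comp41222_c0 (966 bp), had 136 reads in yellow seeds, against 20 in brown seeds, a ratio of 6.90 (4.30 to 11.7). The unigene comp30820_c0 (453 bp) had 53 reads in yellow seeds, against 5 in brown seeds, a ratio of 10.8 (4.33 to 34.5). The shortest, comp41222_c1 (284 bp), had 27 reads in yellow seeds, against 3 in brown seeds, a ratio of 9.13 (2.81 to 47.0). All 3 were called higher, and their intervals overlapped, so no difference among them was detectable at this depth. Summed over the gene, CRU1 had 216 reads in yellow seeds, against 28 in brown seeds, a ratio of 7.83 (5.27 to 12.1).

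CRU2 was the most abundant of the 8 11S unigenes that the rule found, in both libraries, and had the lowest ratio of those called higher. Its unigene (comp44289_c0, 1617 bp) matches a 12S seed storage protein of Arabidopsis (score 1785) and was assigned to GSBRNA2T00031894001 on C08, plus strand, from 37216199 to 37217933. It had 1776 reads in yellow seeds, against 814 in brown seeds, which is 47.2 RPKM in yellow and 21.3 RPKM in brown seeds. The ratio of 2.21 (2.04 to 2.41) lay close to the 2-fold threshold (adjusted p = 4.29e-82 by Fisher's exact test). The intervals of CRU2 and CRU4 did not overlap.

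BnC2 ran the other way, on few reads. The cruciferin BnC2 was represented by 2 unigenes of GSBRNA2T00084827001 on A02, minus strand, from 15040487 to 15042611. The longer, comp223381_c0 (1044 bp), had 12 reads in yellow seeds, against 26 in brown seeds, a ratio of 0.468 (0.215 to 0.961) that did not pass (adjusted p = 0.146 by Fisher's exact test). The shorter, comp273222_c0 (465 bp), had 0 reads in yellow seeds, against 13 in brown seeds, and was called lower (adjusted p = 0.00266 by Fisher's exact test). With 3 reads in place of 0 in the yellow library, and the brown reads taken as exact, it was 4.27-fold lower in yellow seeds. The exact interval of its ratio, which also covers the counting error of the brown reads, reached up to 0.333. Together the BnC2 unigenes had 12 reads in yellow seeds, against 39 in brown seeds, a ratio of 0.312 (0.149 to 0.609). This interval did not overlap that of any globulin gene called higher, although BnC2, CRU1 and CRU4 had overlapping levels in brown seeds.

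The remaining 11S member, the 12S globulin 2 (comp234135_c0, 914 bp, GSBRNA2T00139483001 on C08, minus strand, from 21927899 to 21929715), had 12 reads in yellow seeds, against 17 in brown seeds. Its ratio of 0.716 had an interval of 0.312 to 1.59, so that a difference was not detectable at this depth (adjusted p = 0.715 by Fisher's exact test).

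Convicilin carried most of the globulin reads. The unigene comp48780_c0 (2109 bp) was assigned to GSBRNA2T00027218001 on A08, minus strand, from 12800732 to 12803492, and its closest NR entry was a cupin family protein of Arabidopsis (score 1567). It had 20048 reads in yellow seeds, against 7933 in brown seeds. Its level was 409 RPKM in yellow and 159.5 RPKM in brown seeds, a ratio of 2.56 (2.50 to 2.63). It ranked 154 among all unigenes in yellow seeds and 539 in brown seeds, higher than any other globulin.

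The vicilin-like unigenes, named after antimicrobial peptides that macadamia cuts out of a vicilin precursor, were also called higher. The unigene on C04 (comp47792_c0, 1603 bp, GSBRNA2T00089995001, plus strand, from 13660200 to 13662269) had 3107 reads in yellow seeds, against 454 in brown seeds. Its level was 83.4 RPKM in yellow and 12.01 RPKM in brown seeds, and its ratio of 6.94 (6.29 to 7.68) was the highest of the 7S family. The unigene on A06 (comp43513_c0, 1317 bp, GSBRNA2T00042168001, plus strand, from 17423093 to 17425672) had 961 reads in yellow seeds, against 315 in brown seeds, which is 31.4 RPKM in yellow and 10.1 RPKM in brown seeds. Its ratio was 3.10 (2.72 to 3.53, adjusted p = 4.68e-76 by Fisher's exact test). The intervals of convicilin and of the vicilin-like unigenes did not overlap one another.

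**Figure D2:**
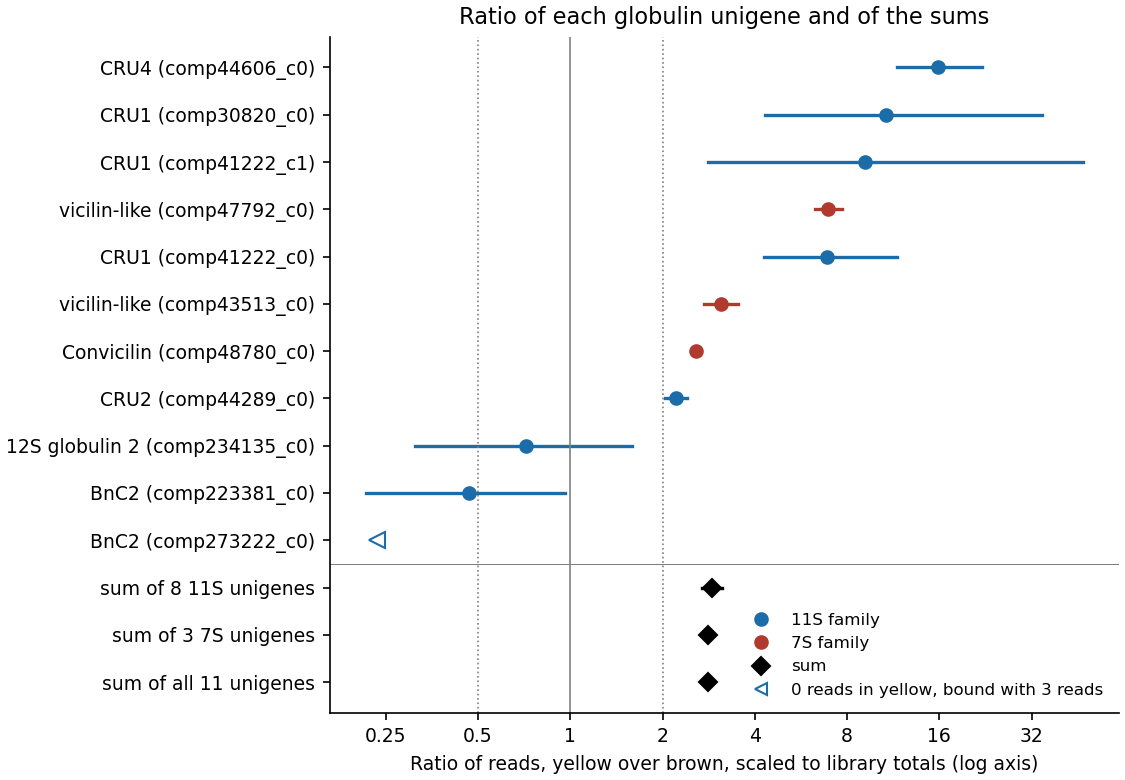
Ratio of reads, yellow over brown, for each globulin unigene and for the sums, on a log axis with lines at 1 and at 2-fold in either direction; bars are exact 95% binomial intervals, and the open triangle is the bound for the unigene with 0 reads in yellow seeds. CRU4 lies highest at 15.9, CRU2 lowest among those called higher at 2.21, and the BnC2 unigenes lie below 1.

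Summed over the 11 unigenes, globulins had 26804 reads in yellow seeds, against 9643 in brown seeds. This was 0.115% of the reads counted over all unigenes in yellow and 0.0409% in brown seeds. The ratio of the sums was 2.82 (2.76 to 2.89). The intervals of the 11S and 7S sums overlapped, whereas those of their members were spread widely. The 8 11S unigenes of the rule had 2688 reads in yellow seeds, against 941 in brown seeds, a ratio of 2.90 (2.69 to 3.12). The 3 7S unigenes had 24116 in yellow seeds, against 8702 in brown seeds, a ratio of 2.81 (2.74 to 2.88). Outside the rule, comp46302_c0, named after a rice glutelin of the 11S family, had 2090 reads in yellow seeds, against 2319 in brown seeds. It had more brown reads than the 8 together, so the 11S ratio holds for the rule's unigenes only. The globulin-like unigenes comp43513_c2 and comp25963_c0, also outside the rule, were called higher. Among the unigenes of the rule, convicilin weighed most in the sums. It held 74.8% of the globulin reads in yellow and 82.3% in brown seeds, and without it the ratio of the sum was 4.01 (3.80 to 4.23). The 6 unigenes described as *B. napus* cruciferins had 900 reads in yellow seeds, against 110 in brown seeds, a ratio of 8.30 (6.80 to 10.2), but they held 3.36% of the globulin reads in yellow and 1.14% in brown seeds.

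Among the globulin reads other than convicilin, the make-up differed between the libraries. The vicilin-like unigene on C04 took 46.0% of them in yellow and 26.5% in brown seeds. CRU2 took 26.3% in yellow and 47.6% in brown seeds, and CRU4 took 9.95% in yellow and 2.51% in brown seeds. CRU2 was thus the largest of these in brown seeds and the vicilin-like unigene on C04 in yellow seeds.

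**Figure D3:**
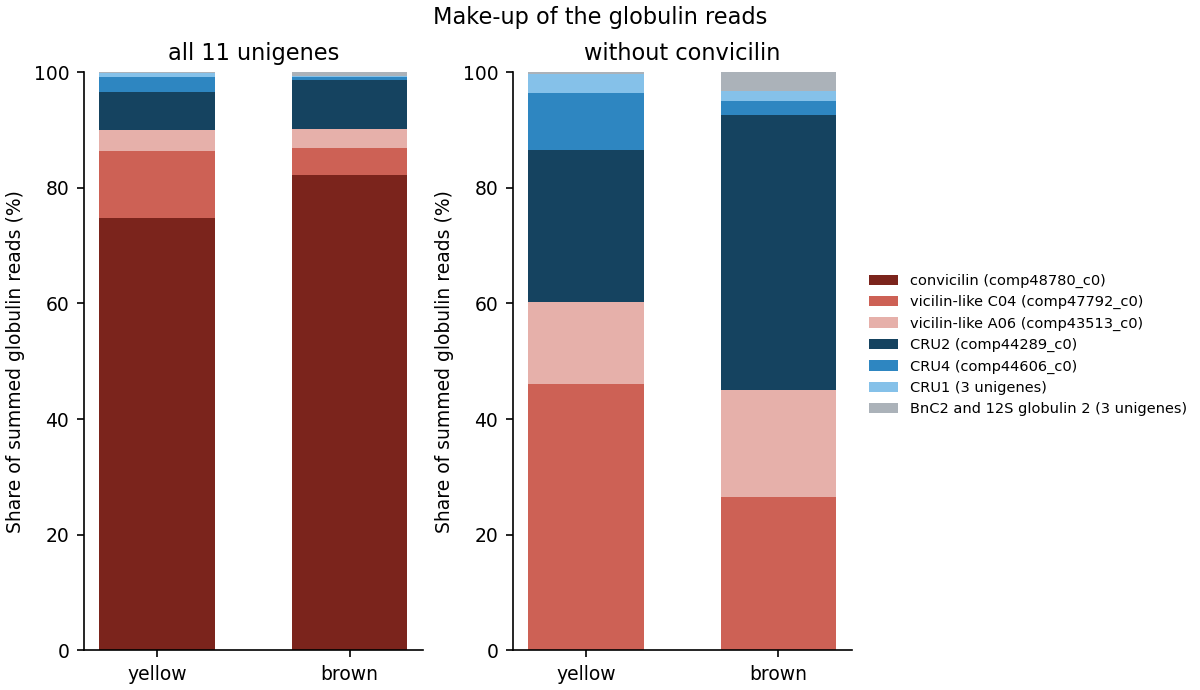
Share of the summed globulin reads (%) held by each member in the yellow and the brown library, for all 11 unigenes and without convicilin. Convicilin holds 74.8% in yellow and 82.3% in brown seeds, and among the rest the vicilin-like unigene on C04 holds 46.0% in yellow and 26.5% in brown seeds.

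**Figure D4:**
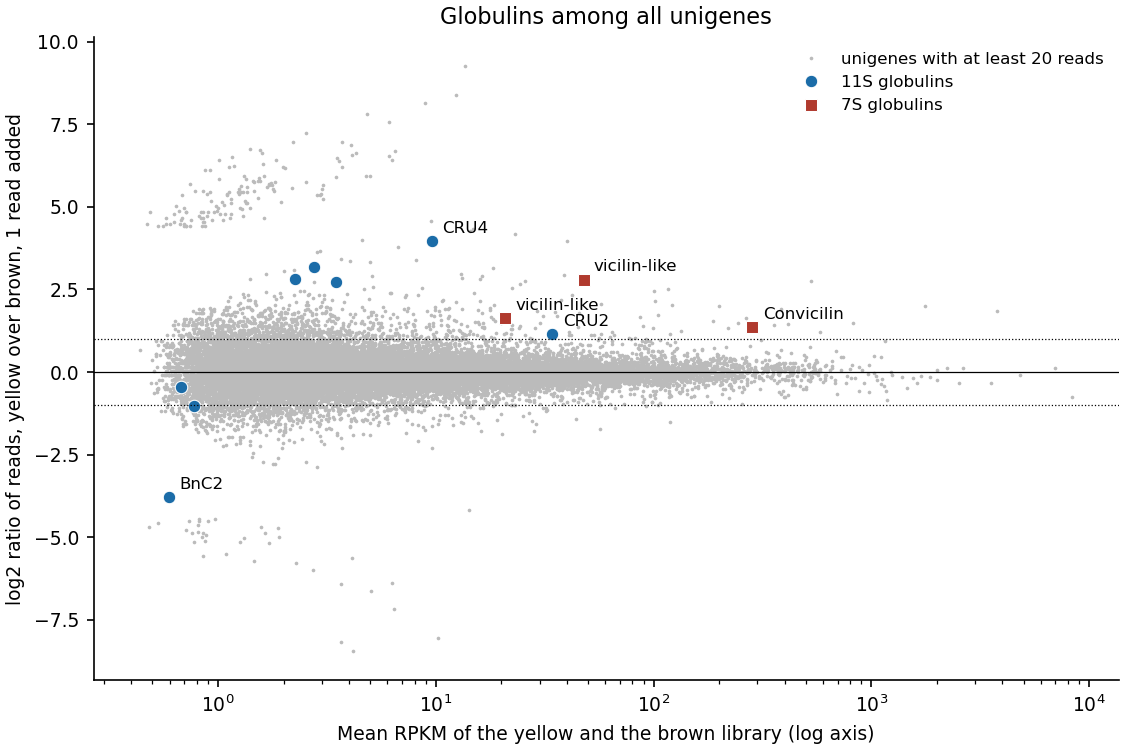
Log2 ratio of reads, yellow over brown, with 1 read added to each library, against mean RPKM (log axis) for 29239 unigenes with at least 20 reads (grey) and for the 11 globulins (circles 11S, squares 7S); dotted lines mark 2-fold. The globulins called higher lie above the upper line over a wide range of levels, and the BnC2 fragment, drawn although it had 13 reads, lies below the lower one.

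Unigenes nearest to a globulin in log2 ratio, over the 2 libraries, were looked up among those with an assigned gene, a Swiss-Prot description and a mean RPKM within 2-fold of it. For CRU4 they were a myrosinase (comp44195_c1, ratio 15.2), pathogenesis-related protein 5 (comp25485_c0, 22.7) and germin-like protein subfamily 3 member 3 (comp35428_c0, 7.98). For the CRU1 unigene comp41222_c0 they were 2S seed storage protein 2 (comp32743_c0, 6.43), a myrosinase MB1 fragment (comp42273_c0, 7.61) and Napin-1A (comp32743_c1, 6.20). Of these, comp32743_c0 (201 bp) and comp32743_c1 were assigned to the same gene on C07. For CRU2 they were fasciclin-like arabinogalactan protein 1 (comp49630_c0, 2.22), a GDSL esterase (comp47208_c0, 2.23) and aspartic proteinase A2 (comp42948_c1, 2.19). For convicilin they were a chloroplastic iron superoxide dismutase (comp42350_c1, 2.82), a unigene described as cannabidiolic acid synthase (comp41771_c0, 2.91) and oleosin Bn-III (comp45251_c0, 3.08). A unigene described as agglutinin (comp44980_c0, 6.77) came nearest to the vicilin-like unigene on C04. It was followed by one described as ubiquitin carboxyl-terminal hydrolase 12 (comp45240_c0, 6.36) and a germin-like protein (comp43145_c0, 7.66). The agglutinin and hydrolase names rest on low Swiss-Prot scores of 177 and 139, so they may not name the proteins. Peroxidase 12 (comp44271_c0, 3.15), poly [ADP-ribose] polymerase 3 (comp52600_c0, 2.96) and aspartic proteinase nepenthesin-1 (comp50260_c0, 2.95) came nearest to the vicilin-like unigene on A06.

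Other genes of storage and oil accumulation were set beside the globulins. The napins, 2S albumins stored in the same vacuoles, had 3 of 4 unigenes called higher and none lower, beside 3.28% and 1.47% of all unigenes. Among the 3, comp32743_c0 and comp32743_c1 were assigned to the same gene. The summed level of the napins was 933 RPKM in yellow and 139 RPKM in brown seeds. The most abundant of them was the embryo-specific napin comp51403_c0, at 915 RPKM in yellow and 136 RPKM in brown seeds. Napin thus stood above convicilin in yellow seeds and below it in brown seeds. Of 17 oleosins and caleosins, proteins of the oil body surface, 12 were called higher and 1 lower, beside the same 3.28% and 1.47%, with a median log2 ratio of 2.02 over the 16 unigenes with at least 20 reads. Oleosin Bn-III (comp45251_c0) stood at 400.3 RPKM in yellow and 130.2 RPKM in brown seeds, and oleosin S1-2 (comp43766_c0) at 198 RPKM in yellow and 34.6 RPKM in brown seeds. The oleosin called lower, an Oleosin-B2 fragment (comp37951_c0), had 339 reads in yellow seeds, against 688 in brown seeds. Its ratio (0.438 to 0.570) lay at the 2-fold threshold, and with 1 read added to each library its log2 ratio of -0.998 no longer passed it. The 10 globulin unigenes with at least 20 reads spread from BnC2 to CRU4 around a median of 2.18. Of these, CRU1 gave 3, whereas the 3 napin unigenes lay between 2.50 and 2.75.

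The proteins that handle globulins on their way to the vacuole were looked at next. Of 47 unigenes for vacuolar-processing enzymes, sorting receptors, retromer subunits, protein disulfide isomerases and endoplasmic oxidoreductins, 3 were called higher and none lower, beside 3.28% and 1.47% of all unigenes. The median log2 ratio was 0.08 over the 43 with at least 20 reads. The 3 were parts of 1 gene on C04 (GSBRNA2T00152832001) for vacuolar-sorting receptor 1, a receptor that carries storage globulins in Arabidopsis. Of these, comp50998_c1 had 404 reads in yellow seeds, against 93 in brown seeds, a ratio of 4.41 (3.51 to 5.58), and comp50998_c3 had 402 in yellow seeds, against 108 in brown seeds. The unigene comp50998_c0 of the same assembly component, described as vacuolar-sorting receptor 3, had 2849 reads in yellow seeds, against 2592 in brown seeds, and was not called. The most abundant vacuolar-processing enzyme, comp47009_c0, had 842 RPKM in yellow and 1520 RPKM in brown seeds, a ratio of 0.554 (0.548 to 0.559) that did not reach 2-fold. The protein disulfide isomerases 1-2 (comp50609_c0), 2-1 (comp51629_c0) and 1-1 (comp50875_c0), which help globulins to form disulfide bonds, had ratios of 0.842, 0.825 and 1.18.

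Of 37 unigenes in a list of storage protein regulators, 1 was called higher and none lower, beside 3.28% and 1.47% of all unigenes. The median log2 ratio was 0.02 over the 31 with at least 20 reads. This list was read from descriptions and also holds the oil regulator WRI1, so its median is not over storage protein regulators alone. ABI3 (comp50976_c0), a B3 factor that switches on storage protein genes in Arabidopsis, had 2371 reads in yellow seeds, against 1679 in brown seeds, and was not called. FUS3 (comp45368_c0) had 354 reads in yellow seeds, against 308 in brown seeds, and LEC2 (comp47132_c0) had 340 in yellow seeds, against 529 in brown seeds. The bZIP factors that act with ABI3 in Arabidopsis were not called either, with basic leucine zipper 10 (comp47499_c0) at 1900 reads in yellow seeds, against 1847 in brown seeds. WRI1 (comp51889_c0), a regulator of oil synthesis, and the abundant unigenes described as ocs element-binding factor 1 (comp51846_c0, comp49784_c0 and comp45706_c0) had ratios of 0.880, 0.991, 1.00 and 0.952. The one called higher, comp19707_c0, was a unigene of nuclear factor Y subunit B-6, a relative of LEC1, with 76 reads in yellow seeds, against 16 in brown seeds, a ratio of 4.82 (2.79 to 8.85). Another B-6 unigene with more reads, comp52620_c0, had 2298 in yellow seeds, against 1622 in brown seeds, and was not called.

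Markers of the other seed tissues were set beside the globulins, with 3.28% of all unigenes called higher and 1.47% lower as the background of their counts. Of 16 seed coat mucilage and epidermis unigenes none was called, and their summed level was 668 RPKM in yellow and 873 RPKM in brown seeds. The pectinesterase inhibitor comp46646_c0 had the highest level among them, at 295 RPKM in yellow and 472 RPKM in brown seeds. Of 6 endosperm unigenes none was called, and their summed level was 54.5 RPKM in yellow and 65.0 RPKM in brown seeds. None of the table's unigenes with an assigned gene was described as AGL62 or FIS2, markers of the young endosperm. Of 32 seed coat endothelium unigenes, 2 were called higher and 1 lower, each a unigene of at most 51 reads described as TRANSPARENT TESTA 12, a name that also covers related transporters. Their summed level was 871 RPKM in yellow and 808 RPKM in brown seeds, most of it laccase-15 (comp48255_c0). The reference gene *BnAct2* (comp54530_c0) had a ratio of 1.04 (1.02 to 1.05). The part of tissue proportions in the ratios of the globulins was not tested.

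**Figure D5:**
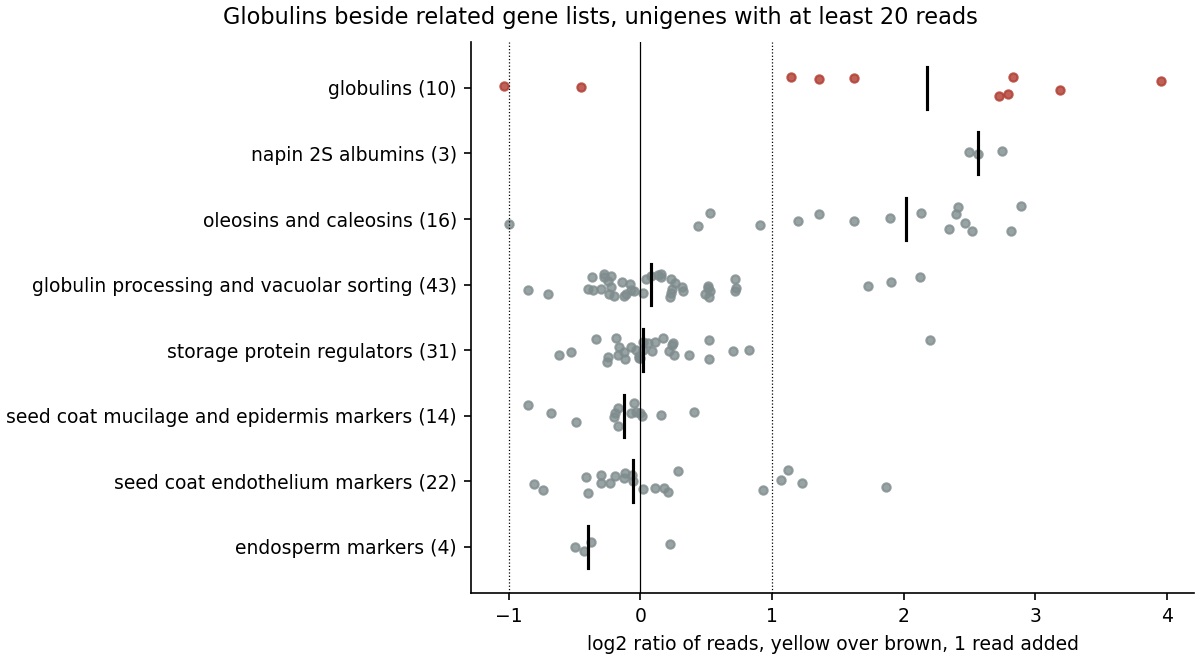
Log2 ratio of reads, yellow over brown, with 1 read added to each library, for unigenes with at least 20 reads in each list, with the number of unigenes in brackets and a bar at the median. Globulins, napins and oleosins have medians of 2.18, 2.57 and 2.02, while the lists of processing proteins, regulators and markers of other seed tissues have medians between -0.40 and 0.08. Points are unigenes: 3 globulin points are of the CRU1 gene, and the napins comp32743_c0 and comp32743_c1 share 1 gene.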

How the data were processed

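Whole seeds of each line gave 1 paired-end library. Per the study's methods, the authors removed reads with adapters, unknown bases or low quality and joined both libraries in a single Trinity assembly. The table holds estimated counts per unigene, which the authors deposited unscaled, and deposited RPKM values, which the authors obtained by scaling to unigene length and library total. How reads were aligned and counted is not given in the sources used here. Gene models of Darmor-*bzh* beside the unigenes are the authors' assignments, and homoeologous copies on A and C chromosomes can share a unigene.

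Estimated counts were rounded to whole reads (23236592 in yellow and 23575447 in brown seeds). Fisher's exact test, two-sided, was run on each unigene against all other reads and adjusted by Benjamini-Hochberg over 50366 unigenes, because DEGseq, the method of the study, was not installed. At the same stated thresholds the study reported far fewer differentially expressed genes than the 1650 higher and 738 lower called here. The calls here are therefore not the study's list, and the reason for the gap was not tested. Intervals of ratios are exact binomial at 95%, cover counting error only, and 0 reads were bounded with 3. The test was checked on simulated data with counting error only. This check cannot show how often a spread between plants or libraries would lead to false calls. Lists were read from whole words in Swiss-Prot descriptions of unigenes with an assigned gene. List members were named from the 4 with the highest mean RPKM and those called. ABI3, FUS3, LEC2, basic leucine zipper 10, comp50998_c0 and comp52620_c0 were added after their values were seen. The globulins and the lists were chosen with earlier results of these data known. The alternatives were other scalings (TMM, median-ratio), the formula of DEGseq, assumed biological coefficients of variation, a minimum of 20 reads, 1 read added per library, RPKM ratios, wider membership rules and sums without each member. The software was R 4.3.3 with edgeR 4.0.16 and DESeq2 1.42.0, and Python 3.11.15 with SciPy 1.17.1 and pandas 2.3.3.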

Additional observations from a re-analysis of the deposited data

How the results depend on the processing

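No paired analysis was possible because each line has 1 library. TMM and median-ratio scaling moved the median log2 ratio of unigenes with at least 20 reads by 0.01 and -0.02. Of 98 values of single globulins under the alternatives, 87 kept their direction and their side of the threshold and 11 lost the call, all of these with an assumed biological coefficient of variation. The 87 is not a measure of robustness, since parts of several alternatives were fixed by construction. The settings with 1 read added and with RPKM ratios kept the main adjusted p. The DEGseq formula and the assumed coefficients of variation kept the main ratio. With 0.2, 0 globulins were called lower; with 0.4, 1 was called higher and 0 lower, the assumed spread being wider by construction. With a minimum of 20 reads, 0 were called lower, because the BnC2 fragment comp273222_c0 was not tested. The ratio of summed reads was 4.01 without comp48780_c0, 2.62 without comp47792_c0 and 2.90 as a sum of RPKM, an alternative chosen after seeing the data. It stayed within its interval with other scalings or any other single member left out. Each wider membership rule found the same 11 unigenes, so the sum could not move under it. These rules did not take in comp46302_c0, comp43513_c2 or comp25963_c0, and a globulin sum with them was not made. Depth limits the 12S globulin 2 and BnC2, which had 12 reads or fewer per unigene in yellow seeds.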

Other observations

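Some cupin unigenes fell outside the words that chose the globulins, and those named here were picked after their values were seen. A further unigene of the vicilin-like gene on A06, comp43513_c2, has no Swiss-Prot description and had 504 reads in yellow seeds, against 133 in brown seeds, a ratio of 3.84 (3.17 to 4.69). Together with comp43513_c0, the gene had 1465 reads in yellow seeds, against 448 in brown seeds, a ratio of 3.32 (2.98 to 3.70). The unigene comp25963_c0 on C07, described in NR as a globulin-like protein of Arabidopsis, had 177 reads in yellow seeds, against 48 in brown seeds, a ratio of 3.74 (2.71 to 5.26). By contrast, comp46302_c0, named after a rice glutelin of the 11S family, had 2090 reads in yellow seeds, against 2319 in brown seeds, a ratio of 0.914 (0.861 to 0.970). It has the same best NR entry as the 12S globulin 2 (comp234135_c0), and neither was called. At 63.5 RPKM in yellow and 69.4 RPKM in brown seeds, it was more abundant in brown seeds than any globulin except convicilin.

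Of all 22 other unigenes with a Pfam cupin domain and an assigned gene, 5 were called higher and none lower. Of all unigenes, 3.28% were called higher and 1.47% lower. The 22 include unigenes named after other kinds of protein, such as a glutamate--tRNA ligase (comp53779_c0) and an aldo-keto reductase (comp29730_c0). Germin-like proteins, small cupins of the cell wall, made up 13 of the 22, and 3 of these 13 were called higher. The 17 with at least 20 reads had a median log2 ratio of 0.18.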
